A study of Mus musculus with 2 samples.

Results

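Malat1 and Neat1, 2 long nuclear RNAs that are not translated, and 6 host genes of small nucleolar RNAs (snoRNAs), Gas5, Snhg1, Snhg3, Snhg6, Snhg8 and Snhg12, were followed in single-cell RNA sequencing of mouse embryonic stem cells. They were chosen by name, as 8 of the 38458 gene columns, and all 8 passed the minimum of 50 transcripts over both libraries that 6984 genes reached. Both libraries came from DKO741, a single Terc-/- line made in E14 cells by targeting both alleles of Terc, which encodes the RNA template of telomerase. The sample labels give passage 100 for PD100 cells and passage 800 for PD800 cells, while the study uses PD for population doubling. These are pre-ALT and post-ALT cells (ALT is alternative lengthening of telomeres), and passage is used below as in the labels. The line had been kept on mouse embryonic fibroblasts and was grown without feeders for the experiments, and no Terc+/+ library was analysed here. Each passage had 1 library, so passage and library preparation cannot be told apart, no test was made, and every interval below is a 95% interval for counting error only.

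Malat1 RNA is concentrated in nuclear speckles, bodies rich in splicing factors, and Neat1 RNA is the scaffold of paraspeckles, nuclear bodies that form beside them. A snoRNA host gene is transcribed and spliced, its introns release snoRNAs that guide the modification and processing of ribosomal RNA, and the spliced exons have little coding potential. Several of these exonic RNAs, Gas5 best known among them, start with a pyrimidine tract (5′ TOP) like that of ribosomal protein mRNAs, enter ribosomes and are then removed by nonsense-mediated decay. The inDrops method tags transcripts captured by their A-rich ends with a unique molecular identifier (UMI), so the libraries measure the long host RNA and hardly the snoRNAs cut from it.

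In the GENCODE M21 annotation of GRCm38, Malat1 (chr19:5795690-5802672, minus strand) and Neat1 (chr19:5824708-5845478, minus strand) lay 22.0 kb apart. Gas5 (chr1:161034422-161038539, plus strand) held 10 annotated snoRNA genes, overlapping entries included, and Snhg1 (chr19:8723475-8726443, plus strand) held 8. Snhg12 (chr4:132308623-132311024, plus strand) held 5, Snhg3 (chr4:132348014-132353686, minus strand) held 2, and Snhg6 (chr1:9941959-9944118, minus strand) and Snhg8 (chr3:123507552-123508404, minus strand) held 1 each. All 147 snoRNA columns of the tables together collected 35 UMIs in PD100 and 33 in PD800, and none reached the minimum for a ratio.

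The annotated start sites show how far the shared TOP-like start goes among these genes, and RefSeq promoters on GRCm38.p6 were at hand for 6 of the 8, not for Neat1 and Snhg6. Each line below holds 60 bases, with the start site as the base after the first 30, and capitals mark the longest run of at least 5 C or T that begins with C within 10 bases of that site.
Gas5 (chr1:161035136-161035195, plus strand): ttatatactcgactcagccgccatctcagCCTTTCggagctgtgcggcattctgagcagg
Snhg8 (chr3:123508307-123508366, minus strand): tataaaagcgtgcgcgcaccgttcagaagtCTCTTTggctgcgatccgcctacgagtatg
Snhg12 (chr4:132308648-132308707, plus strand): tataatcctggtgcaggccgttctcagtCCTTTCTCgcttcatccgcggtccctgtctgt
Snhg3 (chr4:132353657-132353716, minus strand): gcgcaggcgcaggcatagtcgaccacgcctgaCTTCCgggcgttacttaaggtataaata
Snhg1 (chr19:8723457-8723516, plus strand): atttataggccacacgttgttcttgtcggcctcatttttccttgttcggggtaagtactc
Malat1 (chr19:5802643-5802702, minus strand): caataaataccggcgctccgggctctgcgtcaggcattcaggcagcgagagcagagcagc
The run was present in Gas5, Snhg8, Snhg12 and Snhg3 and absent from Snhg1, from Malat1 and from a second, more upstream Gas5 start. At Snhg1 the start site was a C in a pyrimidine stretch broken by an A, which a rule for unbroken runs leaves out. In Gas5 and Snhg8 the start site itself was a C followed by at least 4 pyrimidines. Of all 32851 promoters, 30.7% had such a run within reach and 2.51% had it exactly at the start site, against 56.2% and 19.2% of 73 promoters of cytosolic ribosomal proteins. The match only describes these letters.

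The filter of at least 1000 UMIs and at most 20% mitochondrial (mt-) UMIs left 814 of 1291 PD100 barcodes and 900 of 1666 PD800 barcodes, with 1826233 and 2580963 UMIs and medians of 2151 and 2701.5 UMIs per cell. The median mt- share was 1.23% in PD100 and 4.42% in PD800. The libraries shared 21 barcodes, 8 of them among the kept cells. At least 1 UMI of 8 stem cell markers was present in 100% of cells of both libraries, and at least 3 in 99.1% of PD100 and 99.8% of PD800 cells. Most of these UMIs were from Dppa5a, 16145 of 21544 in PD100 and 24974 of 31831 in PD800. At least 3 UMIs of 10 extraembryonic endoderm markers were found in 41 PD100 cells but 1 PD800 cell, and at least 1 UMI in 13.0% and 5.11% of cells. Counts were divided by the library total (CPM), and the median log2 ratio of PD800 over PD100 over the tested genes was -0.34. The ratios of the 8 genes and of the summed hosts are therefore also given relative to that median.

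Malat1 was the most abundant of the 8 in both libraries. It had 638 UMIs in PD100 and 564 in PD800, which is 349 CPM (323 to 378) and 219 CPM (201 to 237). The intervals did not overlap, and PD800 was lower with a log2 ratio of -0.68 (-0.84 to -0.51), a fold of 0.626. Much of that difference was shared with other genes, since relative to the median gene it was -0.34 and 31.7% of tested genes had a lower ratio.

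Neat1 had 94 UMIs in PD100 and 60 in PD800, or 51.5 CPM (41.6 to 63.0) and 23.2 CPM (17.7 to 29.9). PD800 was lower again, with a log2 ratio of -1.15 (-1.64 to -0.66), and -0.80 relative to the median gene. It was the only one of the 8 past 2-fold, in a comparison where 16.9% of all tested genes were at least 2-fold lower and 9.22% at least 2-fold higher in PD800. Thus 1 of 8 genes was 2-fold lower and 0 were 2-fold higher, too few to set against those shares. UMIs do not separate the long and short Neat1 isoforms.

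Together the 6 host genes had 420 UMIs in PD100 and 667 in PD800, which is 230 CPM (209 to 253) and 258 CPM (239 to 279). The log2 ratio of their sum was 0.17 (-0.01 to 0.35), with an interval that reached just below 0, and it was 0.51 above the median gene. The interval was above 0 over totals without mt- UMIs at 0.22 (0.04 to 0.40), in cells of at most 5% mt- at 0.20 (0.01 to 0.40) and in cells of at least 2000 UMIs at 0.21 (0.01 to 0.42). It included 0 in cells of at least 500 UMIs at 0.16 (-0.01 to 0.34). It also included 0 without endoderm marker cells at 0.12 (-0.05 to 0.31) and without doublets called by Scrublet at 0.16 (-0.02 to 0.35).

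Gas5, a host RNA that accumulates when translation or growth slows, made up the largest part of that sum. It had 201 UMIs (110 CPM, 95.4 to 126) in PD100 and 303 UMIs (117 CPM, 105 to 131) in PD800. Most of each interval lay inside the other, the log2 ratio being 0.09 (-0.17 to 0.36). Relative to the median gene Gas5 stood at 0.43.

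Snhg1, a host of box C/D snoRNAs, was the only member with an interval above 0. It had 53 UMIs (29.0 CPM, 21.7 to 38.0) in PD100 and 116 UMIs (44.9 CPM, 37.1 to 53.9) in PD800. This gave 0.63 (0.15 to 1.13) on the log2 scale, 0.97 above the median gene, although the intervals of the 2 levels touched.

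Snhg3, which holds the box H/ACA snoRNAs Snora73a and Snora73b, had 35 UMIs (19.2 CPM, 13.3 to 26.7) and 72 UMIs (27.9 CPM, 21.8 to 35.1), with a log2 ratio of 0.54 (-0.06 to 1.17). Relative to the median gene Snhg3 stood at 0.88. Its annotated exons overlap those of Rcc1 on the same strand, so reads could be split between the genes. Rcc1, a nucleotide exchange factor for Ran, had 104 and 68 UMIs and lay on the other side of 0 with a log2 ratio of -1.11 (-1.57 to -0.66).

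Snhg8, host of Snora24, had 60 UMIs (32.9 CPM, 25.1 to 42.3) in PD100 and 93 UMIs (36.0 CPM, 29.1 to 44.1) in PD800. Snhg12, with 36 and 50 UMIs, had 19.7 CPM (13.8 to 27.3) and 19.4 CPM (14.4 to 25.5). Their log2 ratios of 0.13 (-0.35 to 0.63) and -0.03 (-0.67 to 0.63) leave either direction open. Relative to the median gene they were 0.48 and 0.32. Snhg6, host of Snord87, had the lowest ratio of the hosts, with 35 UMIs (19.2 CPM, 13.3 to 26.7) and 33 UMIs (12.8 CPM, 8.80 to 18.0), but its log2 ratio of -0.58 (-1.32 to 0.14) also had an interval that included 0. Relative to the median gene Snhg6 stood at -0.24.

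**Figure D1:**
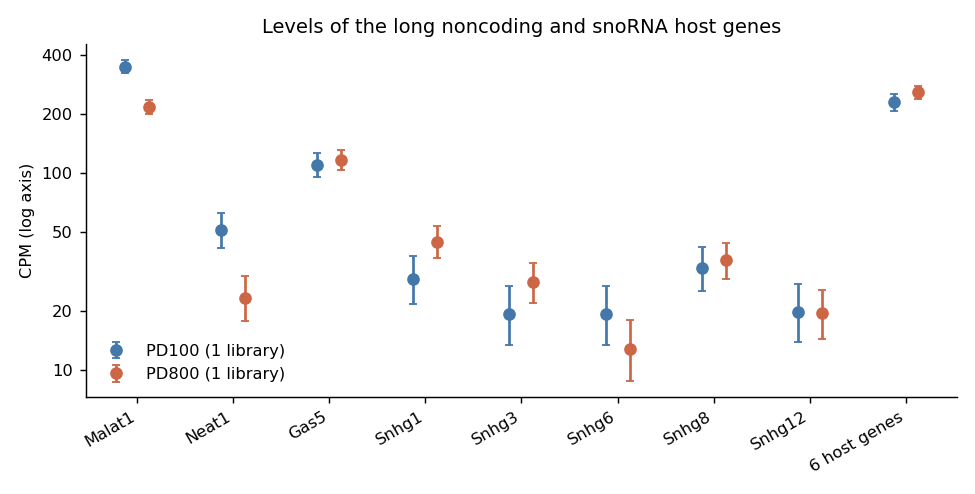
CPM of each gene and of the 6 host genes summed (log axis) in the PD100 library (blue) and the PD800 library (orange), with exact Poisson 95% intervals as bars. Malat1 and Neat1 sit lower in PD800 with intervals that do not overlap, while the intervals of each host gene overlap between the libraries.

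Ranked by level, PD100 ran from Malat1 through Gas5, Neat1, Snhg8, Snhg1 and Snhg12 to Snhg3 and Snhg6, and PD800 from Malat1 through Gas5, Snhg1, Snhg8, Snhg3, Neat1 and Snhg12 to Snhg6. A UMI marks 1 captured transcript, so CPM were not divided by length. Malat1 and Gas5 stood clear of the next gene in both libraries, and so of all genes below. Below Gas5, the intervals of every pair of neighbours in the order overlapped. Neat1 stood 3rd in PD100 and 6th in PD800, and Snhg1 5th and 3rd.

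Across all 8 genes, 4 had a ratio above 0 and 5 lay above the median gene. The interval was above 0 for 1 gene, below 0 for 2 and included 0 for 5. The median log2 ratio was 0.03 over the 8 genes and 0.11 over the 6 hosts.

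Of 14 further snoRNA host RNAs listed, 12 had a column and 9 were tested. Among all tested genes, 9.22% were at least 2-fold higher and 16.9% at least 2-fold lower in PD800. Zfas1, which hosts box C/D snoRNAs, went from 306 UMIs (168 CPM) to 2698 UMIs (1045 CPM), with PD800 over PD100 at 2.64 (2.47 to 2.82) on the log2 scale. Snhg14, the long host RNA of the imprinted Snrpn to Ube3a region, had 24 and 187 UMIs and a log2 ratio of 2.46 (1.85 to 3.14). These 2 were at least 2-fold higher and none was lower, while the other 7 lay between Snhg4 at 0.31 (-0.06 to 0.69) and Snhg11 at -0.75 (-1.49 to -0.03), with Snhg17 at -0.58 (-1.28 to 0.12). The median of the 9 was -0.01, or 0.33 relative to the median gene. Dancr, at -0.54 (-1.04 to -0.04), also had an interval below 0. Snhg1 and Snhg3 stood above all 7 of these.

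**Figure D2:**
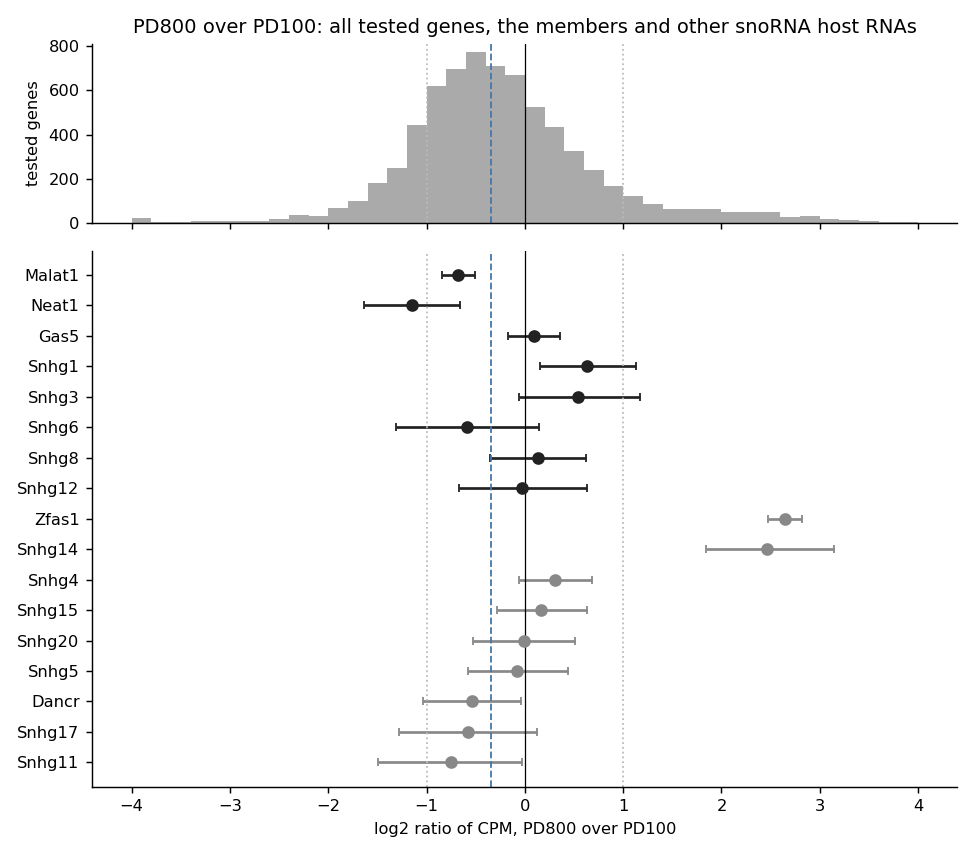
Top, number of tested genes by log2 ratio of PD800 over PD100, with values beyond 4 in either direction placed in the end bins. Bottom, log2 ratios with exact 95% intervals of the 8 genes (black) and 9 other snoRNA host RNAs (grey). The dashed line marks the median tested gene at -0.34, the solid line 0 and the dotted lines 2-fold. Neat1 is the only black point past a dotted line, and Zfas1 and Snhg14 stand alone on the right.

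Among other long noncoding RNAs, 8 of 20 listed were tested. Of these, 3 were at least 2-fold higher and 1 was 2-fold lower, against 9.22% and 16.9% of all tested genes. The median was -0.07, or 0.27 relative to the median gene. The higher ones, Mirg at 1.45 (0.58 to 2.41), Meg3 at 1.20 (1.08 to 1.32) and Rian at 1.17 (0.71 to 1.65), are transcribed from the same imprinted Dlk1-Dio3 domain, where Rian also hosts snoRNAs. Lncenc1, an RNA abundant in naive stem cells, was lower at -1.93 (-2.59 to -1.29), and Tug1 stood at -0.72 (-1.48 to 0.02).

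The proteins that work with these RNAs were described by lists. Each list stands beside all tested genes, of which 9.22% were at least 2-fold higher and 16.9% at least 2-fold lower, with a median of -0.34. Of 17 tested protein-coding genes that host snoRNAs, 0 were 2-fold higher and 2 were lower. Their median was -0.47, or -0.13 relative to the median gene. Nop56, a core protein of box C/D particles that is itself a host, was lower at -1.07 (-1.20 to -0.95), and Eef2, the elongation factor that moves the ribosome, at -1.02 (-1.14 to -0.89). Hspa9 at 0.29 (0.14 to 0.45) and Rpl17 at 0.24 (0.17 to 0.31) were the highest. The 6 noncoding hosts had a median of 0.11, thus above that of the protein-coding hosts.

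Of 14 tested snoRNP proteins, 1 was 2-fold higher and 2 were lower, with a median of -0.54, or -0.20 relative to the median gene. Nop10, the small box H/ACA subunit, went from 458 to 1596 UMIs at a log2 ratio of 1.30 (1.15 to 1.46), while Gar1 of the same particle stood at 0.23 (0.05 to 0.40). Naf1, which assembles box H/ACA particles, was lower at -1.43 (-1.86 to -1.0).

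Of 8 tested nonsense-mediated decay factors, 0 were 2-fold higher and 1 was lower. The median was -0.60, or -0.26 relative to the median gene. The kinase Smg1 was highest at 0.92 (0.39 to 1.46), followed by Upf2 at 0.46 (-0.15 to 1.09), and the endonuclease Smg6 was lowest at -1.11 (-1.97 to -0.27), preceded by Upf3a at -0.85 (-1.15 to -0.56).

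Of 11 paraspeckle proteins, 0 were 2-fold higher and Hnrnph3 was lower at -1.37 (-1.89 to -0.87), with Rbm14 at -0.80 (-1.28 to -0.32) and with Cpsf6 at 0.12 (-0.18 to 0.42) as the highest. Their median was -0.42, or -0.08 relative to the median gene. Of 12 nuclear speckle and splicing proteins, 0 were 2-fold higher and 3 were lower. The median of these proteins was -0.50, or -0.16 relative to the median gene. Son, the speckle scaffold, was highest at 0.68 (0.46 to 0.89), before Srsf1 at 0.04 (-0.25 to 0.34), and Srsf11 at -1.51 (-1.72 to -1.30), Acin1 at -1.49 (-1.77 to -1.22) and Srrm1 at -1.15 (-1.44 to -0.86) were lowest. The 79 tested cytosolic ribosomal protein genes had a median of 0.16, or 0.50 relative to the median gene, with 9 at least 2-fold higher and 3 lower. They ran from Rpl36a at 2.72 (2.64 to 2.80) and Rpl10l at 2.60 (2.04 to 3.21) down to Rplp0 at -1.05 (-1.08 to -1.02) and Rpl15 at -1.09 (-1.14 to -1.05).

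The nearest tested genes on either side were also read. Beside Neat1 the next tested gene, Frmd8, 4.22 kb away at -1.94 (-2.54 to -1.37), was lower in PD800 too, with an interval below 0 as for Malat1 and Neat1. At Snhg1 the host and its neighbours lay on opposite sides of 0. Slc3a2, the heavy chain of amino acid transporters, starts 106 bases away on the opposite strand with 727 and 475 UMIs and a ratio of -1.11 (-1.28 to -0.94), and Wdr74, 9.38 kb away on the other side, stood at -1.70 (-1.94 to -1.46), both below the interval of Snhg1.

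The next tested gene on one side of Gas5, Cacybp at 0.07 (-0.06 to 0.20), was 822 kb away. Beside Snhg12, at 12.9 kb and 0.739 kb, lay Taf12 at -0.10 (-0.41 to 0.22) and Trnau1ap at -0.70 (-0.98 to -0.41), and 105 kb beyond Snhg3 lay Med18 at -0.44 (-0.86 to -0.03). The nearest tested genes of Snhg6 were Rrs1 at -0.43 (-0.73 to -0.13), 395 kb away, and Cops5 at -0.62 (-0.83 to -0.41), 80.5 kb away. The nearest tested genes of Snhg8 were far away, Mettl14 at -0.12 (-0.81 to 0.58) lying 121 kb and Larp7 at 0.22 (-0.07 to 0.52) 4028 kb from it. An exon of Snhg6 overlaps Mcmdc2 on the opposite strand, which had 4 and 2 UMIs.

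Malat1 was seen in about the same share of cells in both libraries as counted, 38.0% (309 of 814) and 36.2% (326 of 900), although PD800 cells were deeper. After every cell was thinned to 1000 UMIs, 22.5% (19.7 to 25.5) of the PD100 and 19.1% (16.6 to 21.8) of the PD800 cells held Malat1 in the draw shown, and 24.0% and 17.4% on average over all draws. For Neat1 the thinned shares were 3.32% (2.20 to 4.79) and 2.44% (1.54 to 3.68) in the draw shown, and 4.26% and 2.26% on average over all draws.

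At least 1 host gene UMI was found in 33.2% of PD100 and 44.0% of PD800 cells as counted. At equal depth the shares were 19.5% (16.9 to 22.4) and 18.7% (16.2 to 21.4) in the draw shown and 18.5% and 21.0% on average over all draws, so no order can be read from them. Gas5 had 9.21% and 9.33%, and each of the other 5 hosts between 1.11% and 3.44% of cells. Cells without a UMI of these genes were not shown to lack them at this depth.

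**Figure D3:**
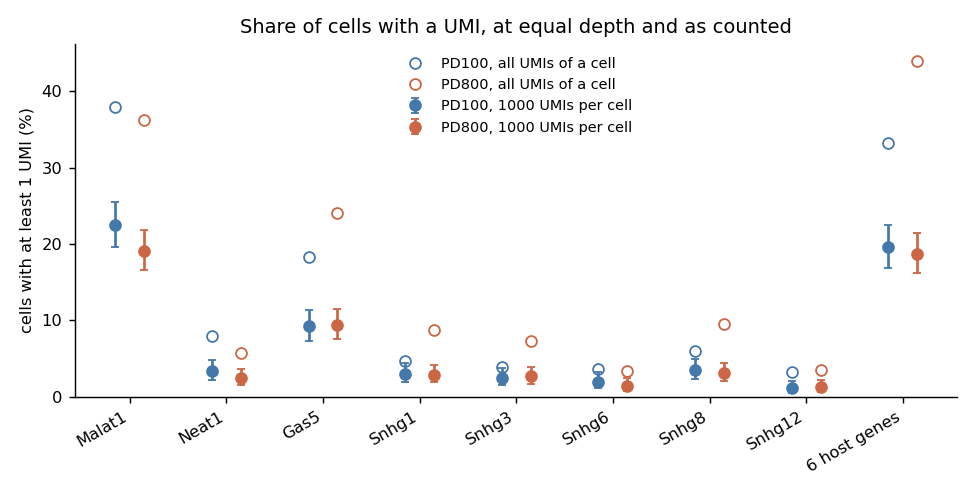
Percent of cells with at least 1 UMI of each gene, as counted (open circles) and after thinning every cell to 1000 UMIs (filled circles, exact binomial 95% intervals), in PD100 (blue) and PD800 (orange). The filled circles of the 2 libraries overlap in their intervals for every gene, while the open circles of most host genes are higher in the deeper PD800 library.

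At 1000 UMIs per cell the variance of Malat1 over its mean was 1.58 in PD100 and 1.24 in PD800. Genes of like mean had a median of 1.32 and a 95th percentile of 1.58 in PD100, and 1.19 and 1.35 in PD800. They include Malat1 itself, whose own value is that 95th percentile in PD100. In a second random draw Malat1 had 1.48 and 1.31, inside the range of like genes in both libraries. Neat1 in PD100 had 1.62, at the 95th percentile of 1.62, and 1.34 in the second draw. As counted, 505 PD100 cells had no Malat1 UMI, 79 had at least 3 and the highest had 10. The hosts summed had 1.21 in PD100 and 1.26 in PD800, inside the range of like genes. Snhg1 had 1.79 in PD800, above the 95th percentile of 1.43, and 1.48 in PD100, below that of 1.64. At 2000 UMIs per cell the order was the other way round, with 1.41 in PD800 and 2.10 in PD100. Since cells varied more than counting alone gives, the counting intervals are narrower than intervals over cells would be.

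The genes hardly varied together from cell to cell. Over 28 pairs, Spearman's rank correlation across cells thinned to 800 non-mt- UMIs had a median of -0.004 in PD100 and -0.01 in PD800 and reached 0.12 and 0.09 at most. Of 1166 genes compared, those most like Malat1 by the mean correlation of the libraries were Eif3h (0.08), Chchd10, Tdh, Akr1a1 and Vimp, and for the summed hosts, over 1167 genes, they were Alad (0.07), Supt16, Atp5g2, Hist1h2ap and Ccdc124. All points of a library share its depth and capture, and correlations this weak in sparse counts are no finding.

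In the 41 PD100 cells with endoderm markers Malat1 and the summed hosts were lower than in the other PD100 cells. Malat1 had 15 UMIs in them, 153 CPM (85.8 to 253) against 360 CPM in the other PD100 cells, a log2 ratio of -1.23 (-2.08 to -0.50). The hosts had 10 UMIs, 102 CPM (49.0 to 188) against 237 CPM, a log2 ratio of -1.22 (-2.29 to -0.32), while Neat1 with 6 UMIs stood at 0.27 (-1.22 to 1.45). No single host had an interval below 0, and the largest, Gas5, had 5 UMIs and stood at -1.15 (-2.79 to 0.10). Without these cells and the single PD800 cell, PD800 over PD100 was -0.72 for Malat1, -1.13 for Neat1 and 0.12 (-0.05 to 0.31) for the hosts. These values were close to those with the cells kept.

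The mt- share of a cell was then set against the level of each gene, over non-mt- UMIs, in 3 equal groups of each library's cells, called low, middle and high by mt- share. In PD100 the groups had median shares of 0.821%, 1.23% and 1.79% and median depths of 2370, 2193 and 1825 UMIs. In PD800 they had 3.45%, 4.42% and 5.79% and 2827.5, 2794.5 and 2464.5 UMIs, so the high groups were also the shallower ones.

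In PD800 Malat1 was highest where the mt- share was low, at 269 CPM (236 to 306) in the low, 212 (182 to 246) in the middle and 202 (171 to 237) in the high group. High over low was -0.42 (-0.72 to -0.11) on the log2 scale. The value was -0.17 with each cell counting equally, 0 (-0.56 to 0.56) after thinning to 800 non-mt- UMIs and -0.74 (-1.09 to -0.39) in cells of at least 2000 UMIs. In PD100 the levels were 392 (346 to 442), 321 (277 to 369) and 343 (295 to 398) CPM, with -0.19 (-0.47 to 0.09) for high over low. In each group the PD800 interval lay below that of PD100.

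Snhg1 in PD800 had 58 UMIs in the low, 34 in the middle and 24 in the high group, or 67.1 (50.9 to 86.7), 40.3 (27.9 to 56.3) and 31.9 (20.4 to 47.4) CPM. High over low was -1.07 (-1.82 to -0.36), and -0.41 (-1.25 to 0.41) with 4 groups of cells in place of 3. In PD100 its middle group was the lowest, with 23, 8 and 22 UMIs, and high over low was 0.32 (-0.59 to 1.23). A difference in slope between the libraries was not tested.

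Snhg6 went the other way in PD100, with 8, 9 and 18 UMIs from the low to the high group and a log2 ratio of 1.56 (0.28 to 2.97). It had 35 UMIs in that library, under the minimum of 50 for this split, and the interval included 0 with 4 groups at 1.29 (-0.27 to 3.01), in cells of at least 2000 UMIs at 0.93 (-0.67 to 2.67) and after thinning at 2.18 (-0.10 to 5.42). The hosts summed had 0.22 (-0.12 to 0.56) in PD100 and -0.18 (-0.46 to 0.09) in PD800. Neat1 had -0.007 (-0.72 to 0.69) and 0.20 (-0.72 to 1.12), and Gas5 -0.22 (-0.74 to 0.30) and -0.15 (-0.58 to 0.27).

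Of the 5 members with 50 UMIs in PD100, 0 were 2-fold higher or lower in the high group, against 1.55% higher and 2.56% lower among all genes tested. Of the 7 in PD800, 1 was lower and 0 higher, against 1.14% higher and 1.72% lower. The rank correlation with the mt- share lay between -0.04 and 0.06 in PD100 and between -0.02 and 0.04 in PD800.

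**Figure D4:**
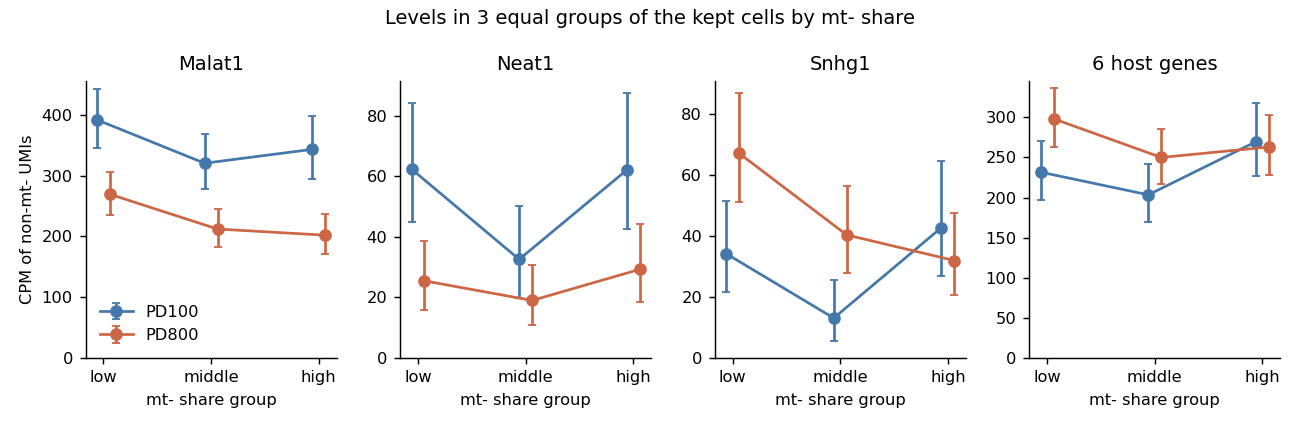
CPM of non-mt- UMIs of Malat1, Neat1, Snhg1 and the 6 host genes summed in 3 equal groups of the kept cells by mt- share, in PD100 (blue) and PD800 (orange), with exact Poisson 95% intervals. Malat1 is lower in PD800 in each group, and Snhg1 in PD800 goes from 67.1 to 31.9 CPM.

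Barcodes beyond the filter were examined after these groups had been seen. In PD800, 81 barcodes had over 20% mt- UMIs, with a median of 666 UMIs, and PD100 had 0 such barcodes. Malat1 had 40 UMIs in 22 of the 81, at most 4 in a barcode, which is 917 CPM (655 to 1248) of non-mt- UMIs against 229 CPM in the kept PD800 cells. The log2 ratio of 2.0 (1.5 to 2.46) ranked 25th of the 917 genes with at least 10 UMIs in these barcodes, of which 13.2% were at least 2-fold higher. Those genes were selected by their counts in the same barcodes. Among 5120 genes with at least 50 UMIs over these barcodes and the kept PD800 cells, Malat1 ranked 85th, and 695 were at least 2-fold higher. Other lists also differed on the log2 scale between these barcodes and the kept cells. Stem cell markers stood at -0.36 (-0.50 to -0.22), endoderm markers with 7 UMIs at 2.87 (1.49 to 4.01), other long noncoding RNAs at 0.87 (0.55 to 1.16) and paraspeckle proteins at 0.38 (0.08 to 0.66), and their part in the Malat1 value was not tested. The hosts had 11 UMIs, 252 CPM (126 to 451) against 271 CPM, a log2 ratio of -0.10 (-1.11 to 0.74). Neat1 had 0 UMIs, which is up to 68.8 CPM when read as 3 counts and has an exact upper limit of 84.5 CPM. Both lie above its level of 24.4 CPM in the kept cells.

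Over all barcodes of any depth, Malat1 in PD800 had 289 CPM (217 to 378) under 2.5% mt-, 248 (225 to 272) from 2.5 to 5%, 200 (170 to 233) from 5 to 10% and 319 (198 to 488) from 10 to 20%. The intervals of neighbouring groups overlapped, and the first and last of these groups were also shallow, with medians of 508.5 and 633 UMIs against 2233 and 2095 in the others. In PD100 it had 345 CPM (320 to 372) under 2.5%, 140 (69.9 to 251) from 2.5 to 5% with 11 UMIs, and 1018 (613 to 1589) from 5 to 10% with 19 UMIs in 40 barcodes. Both groups of barcodes with a high level were also shallow, with medians of 666 UMIs in PD800 and 444 in PD100. Neat1 in PD100 had 49.3 CPM (39.9 to 60.2) under 2.5%, 191 (107 to 315) from 2.5 to 5% with 15 UMIs, and 1 UMI from 5 to 10%, so from 2.5 to 5% it was above its level under 2.5% where Malat1 was below. In PD800 its intervals overlapped across the groups. The hosts stayed between 214 and 304 CPM in all groups of at least 20 barcodes of both libraries, with overlapping intervals.

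**Figure D5:**
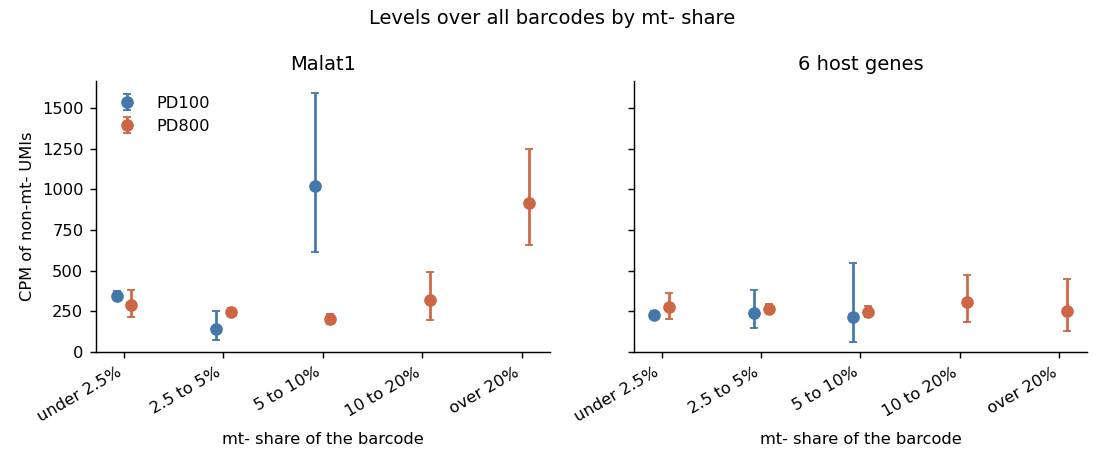
CPM of non-mt- UMIs of Malat1 (left) and of the 6 host genes summed (right) over all barcodes of any depth, by mt- share of the barcode, with exact Poisson 95% intervals, in PD100 (blue) and PD800 (orange). Groups under 20 barcodes are not drawn. Malat1 reaches 1018 CPM in PD100 from 5 to 10% and 917 CPM in PD800 over 20%, while the hosts stay between 214 and 304 CPM.

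Depth alone was described with the same barcodes up to 20% mt-. For Malat1, PD800 over PD100 was -0.98 (-1.29 to -0.67) in cells of at least 2000 and under 3000 UMIs, -0.71 (-0.97 to -0.45) in deeper cells and -0.36 (-0.74 to 0.01) in cells of at least 1000 and under 2000. Below the filter it was -0.03 (-0.66 to 0.62) from 500 up and 0.46 (-0.21 to 1.14) under 500. The lower Malat1 level of PD800 was thus seen in the deeper cells, and the shallow barcodes leave either direction open. For the hosts the interval included 0 in each of these groups, with values from -0.18 to 0.31.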

How the data were processed

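The values deposited were raw UMI counts for each barcode and gene column, which the authors obtained with the inDrops pipeline on a transcriptome of the GRCm38/mm10 assembly. The annotation release and strand setting were not given in the sources used here, and the submitters' processing notes name Scanpy. Cells were filtered as the study describes, which left more cells than the study states, a difference that was not traced. Doublets were kept (Scrublet called 14 PD100 and 8 PD800 cells) and left out in an alternative.

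UMIs were summed per library and scaled to CPM. Sums were given exact Poisson, ratios exact conditional (Clopper-Pearson) and shares exact binomial intervals at 95%, for counting error only. A sum of 0 was read as up to 3 counts. Cells were thinned without replacement to 1000 UMIs, or to 800 non-mt- UMIs, with seed 1. With 1 library per passage no test was made. The ratio intervals were tested on simulated Poisson counts with known ratios, and thinning on simulated cells of known counts. Such counts lack the added variation between cells seen here, and the other steps were not tested on simulated data.

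The members, lists and alternatives were chosen with earlier results of these data known. Besides the 8 members, the text names the 2 highest and 2 lowest genes of each list, the 5 genes most like Malat1 and the hosts, and the nearest tested neighbours, apart from some that are not reported here. Groups of all barcodes by mt- share and by depth, the start-site runs and Rcc1, Mcmdc2, Snhg4, Dancr, Rian and Srrm1 were added after values were seen. Sequences came from RefSeq promoters (GRCm38.p6), positions from GENCODE M21. Python 3.11.15, NumPy 2.4.6, SciPy 1.17.1, pandas 2.3.3, Scanpy 1.11.5 and matplotlib 3.10.9 were used.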

Additional observations from a re-analysis of the deposited data

Results flagged for a closer look

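The barcodes removed by the filter held a signal outside the comparison of kept cells. Malat1 stood at 267 CPM in the 477 removed PD100 barcodes and at 334 CPM in the 766 removed PD800 barcodes. Removed over kept barcodes gave a log2 ratio of -0.39 (-0.77 to -0.02) in PD100 and 0.61 (0.34 to 0.87) in PD800, opposite directions in the 2 libraries. The difference between the libraries was not tested. In the 81 PD800 barcodes over 20% mt- UMIs, Malat1 reached 917 CPM of non-mt- UMIs and the hosts 252 CPM. In the same 81 barcodes stem cell markers stood at -0.36 (-0.50 to -0.22) on the log2 scale against the kept cells. Endoderm markers, with only 7 UMIs, stood at 2.87 (1.49 to 4.01). The hosts had 190 CPM in the removed PD100 and 194 CPM in the removed PD800 barcodes. Removed over kept was -0.27 (-0.74 to 0.17) for them in PD100 and -0.41 (-0.75 to -0.09) in PD800, where Gas5 stood at -0.66 (-1.22 to -0.15).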

How the results depend on the processing

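Ratios of PD800 over PD100 kept their sign under all 8 alternatives for 7 of the 8 genes and for the summed hosts, and under 6 of 8 for Snhg12. Malat1 ranged from -0.75 to -0.34 and the hosts from 0.12 to 0.51. The host interval was above 0 without mt- UMIs, at up to 5% mt- and from 2000 UMIs per cell. It included 0, as in the main setting, from 500 UMIs per cell and without endoderm marker cells or Scrublet calls. Median-of-ratios size factors, which centre the genes near 0, gave -0.34 for Malat1, 0.51 for the hosts, and 970 genes 2-fold higher and 544 lower in place of 644 and 1178. With a minimum of 20 UMIs per gene there were 995 and 1916. Shares of cells followed depth. In cells thinned to 2000 UMIs they were 39.4% and 30.6% for Malat1 and 31.6% and 36.1% for the hosts in PD100 and PD800, and without thinning 38.0%, 36.2%, 33.2% and 44.0%. At 800 non-mt- UMIs Malat1 in PD800 had 14.9% and the hosts in PD100 16.0%. High over low mt- share for Malat1 was 0.22 in PD100 and 0 in PD800 after thinning to 800 non-mt- UMIs, and -0.74 in PD800 cells of at least 2000 UMIs. For the hosts in PD800 it was 0.22 with 4 groups. The cause was not tested. No paired analysis was possible because each passage had 1 library. Each host other than Gas5 had between 33 and 116 UMIs per library, and fewer in any group of cells, which limits these values.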
